A study of Mus musculus with 6 samples.

Results

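The 71 genes described here encode mitochondrial ribosomal proteins, the members of the families whose symbols begin with Mrpl (large subunit) or Mrps (small subunit). They were chosen by the platform annotation: a row of the deposited table counted if it named 1 gene only and that symbol was Mrpl or Mrps followed by a digit, and where a gene had several such rows the one of highest mean over all 6 arrays stood for it. They were 71 of the 22180 genes that rows with a single name covered, and comprised 43 large-subunit and 28 small-subunit genes. The RefSeq gene table lists 78 protein-coding genes with such symbols. The other 7 (Mrpl30, Mrpl33, Mrpl41, Mrpl43, Mrpl44, Mrpl53 and Mrps6) were matched only by rows that name several genes, and were not analysed here.

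Epididymal white fat (eWAT), a visceral depot that lies along the epididymis, supplied the total RNA, taken from 3 wild-type (WT) mice and 3 transgenic (Tg) mice that carry the long noncoding RNA Blnc1 as an adipose-specific transgene. All were male C57BL/6 mice aged 8 months, and both genotypes had received the high-fat diet D12492 for 21 weeks, so both groups represent long-term high-fat feeding. The promoter that drives the transgene is not given in the sources used here, and no row carried the symbol Blnc1, so the genotype labels were not checked on the transgene. Replicates are labelled biological, and the arrays are called WT 1 to WT 3 and Tg 1 to Tg 3.

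Mitochondria keep a ribosome of their own, the mitoribosome, which makes the few membrane proteins of the respiratory chain and ATP synthase that mitochondrial DNA encodes. Its ribosomal RNAs also come from mitochondrial DNA, whereas all of its proteins are encoded in the nucleus, made in the cytosol and imported. The small subunit binds and decodes the message and the large subunit joins amino acids and releases the new chain at the inner membrane. Many of its proteins descend from bacterial ribosomal proteins, and others are found only in mitochondrial ribosomes. In white adipocytes mitochondria supply the oxidative capacity and the carbon units that lipid storage and turnover draw on.

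Values are on the log2 scale, where a difference of 1 is a doubling. The array medians over all rows lay between 2.64 and 2.75. Of 18 measured white adipocyte markers, none lay under the median of all rows (2.67). The same held for 16 macrophage, 9 mast cell and 10 endothelial markers, so this level does not tell cell types apart. The white adipocyte markers averaged -0.10, -0.18 and -0.39 across WT 1 to WT 3, and 0.39, 0.01 and 0.26 across Tg 1 to Tg 3. These means are relative to each gene's mean over the 6 arrays, and 18 of 18 adipocyte markers were higher in Tg. Macrophage markers averaged 0.05, 0.12 and 0.21 in WT and -0.13, -0.14 and -0.11 in Tg, with 15 of 16 lower in Tg. All 9 mast cell markers had a lower mean in Tg, and for 8 of them every Tg array was below every WT array. All 11 T and NK cell markers had a lower mean in Tg, but the arrays were so parted for 0. Each was highest in WT 2 or WT 3, and their mean in WT 1 (-0.70) lay near Tg 2 (-0.64) and Tg 3 (-0.73). All 10 endothelial markers had a higher mean in Tg. For 2 of them every Tg array was above every WT array, and the list mean was higher in WT 1 (0.10) than in Tg 2 (0.04). Of 14 reproductive tract markers, 10 read over 2 log2 units higher in Tg 2 than in every other array. The part of these cell types in the values below was not tested. In such bulk tissue, fewer cells of a type and less RNA per cell cannot be told apart.

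Promoter sequence was available for 62 of the 71 genes, in 68 windows of 300 bases (250 before to 50 after the start; RefSeq, build GRCm38.p6). Nuclear genes for mitochondrial proteins are classically described as targets of nuclear respiratory factor 1 (NRF1), of GABP, an ETS-family factor, and of YY1, so exact matches to their core letters were searched on both strands. The YY1 letters AAGATGGC stood in 17.6% of the member windows (12 of 68), against 3.05% of the 21263 windows of protein-coding genes and 2.75% of all 32851 windows. The ETS and GABP letters CCGGAAGT stood in 14.7% (10 of 68), against 5.15% and 3.89%. The NRF1 palindrome, GCGCA followed by its reverse complement, stood in 4.41% (3 of 68: Mrpl9, Mrpl32 and Mrpl39), against 1.33% and 0.97%. The SP1 letters GGGCGG stood in 54.4%, against 46.2% and 35.7%, the E-box CACGTG in 10.3%, against 7.84% and 7.15%, and the TATA letters TATAAA in 7.35%, against 12.6% and 13.6%. The estrogen-related receptor letters TCAAGGTCA were in none of the 68 member windows and in 0.33% and 0.42% of the others. No motif contains another, and a match is a description of letters, not of a bound site. Member windows had a median GC content of 58.5% (56.3% for protein-coding genes) and a median ratio of observed to expected CpG of 0.82 (0.57 for protein-coding genes). The part of this composition in the motif shares was not tested.

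The 4 windows shown here carry the YY1 letters, the motif with the widest gap to other promoters, in 3 small-subunit genes and 1 large-subunit gene, and include 1 NRF1 and 1 ETS match. Each runs 5′ to 3′ along the gene's strand over 280 bases, of which the last 30 follow the start, and capitals mark the YY1, NRF1 or ETS letters on either strand. Mrps11 (chr7:78782881-78783160, plus strand) encodes the counterpart of bacterial S11, Mrps12 (chr7:28741792-28742071, minus strand) that of S12, a protein of the decoding centre, and Mrpl32 (chr13:14613008-14613287, minus strand) that of L32. Mrps27 (chr13:99344536-99344815, plus strand) encodes a mitochondrion-specific RNA-binding protein with pentatricopeptide repeats.
Mrps11: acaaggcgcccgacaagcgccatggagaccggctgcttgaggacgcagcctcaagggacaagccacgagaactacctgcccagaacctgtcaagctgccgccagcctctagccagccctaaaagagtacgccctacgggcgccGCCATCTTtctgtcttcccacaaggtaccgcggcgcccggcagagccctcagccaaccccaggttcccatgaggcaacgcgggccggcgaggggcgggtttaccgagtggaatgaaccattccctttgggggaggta
Mrps12: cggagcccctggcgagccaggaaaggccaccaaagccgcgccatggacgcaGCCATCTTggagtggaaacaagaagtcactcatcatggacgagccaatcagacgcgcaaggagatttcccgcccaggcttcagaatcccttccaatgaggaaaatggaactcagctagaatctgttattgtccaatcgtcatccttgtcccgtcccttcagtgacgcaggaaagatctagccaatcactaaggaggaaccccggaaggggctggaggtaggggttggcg
Mrpl32: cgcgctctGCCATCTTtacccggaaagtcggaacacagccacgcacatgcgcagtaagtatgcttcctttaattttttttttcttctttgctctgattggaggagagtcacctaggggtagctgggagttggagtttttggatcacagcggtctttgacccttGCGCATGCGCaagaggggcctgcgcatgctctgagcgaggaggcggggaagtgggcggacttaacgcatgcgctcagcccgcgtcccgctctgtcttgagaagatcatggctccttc
Mrps27: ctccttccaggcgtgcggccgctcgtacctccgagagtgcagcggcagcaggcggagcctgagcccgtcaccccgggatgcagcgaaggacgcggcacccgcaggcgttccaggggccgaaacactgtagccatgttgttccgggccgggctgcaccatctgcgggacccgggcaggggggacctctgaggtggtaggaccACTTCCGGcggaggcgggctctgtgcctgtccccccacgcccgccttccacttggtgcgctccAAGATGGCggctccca
The YY1 letters begin 107 bases before the start in Mrps11, 199 before it in Mrps12 and 242 before it in Mrpl32, all on the other strand. In Mrps27 they lie just after the start on the gene's own strand. A neighbouring gene on the opposite strand starts 42 bases from the start of Mrps11, 147 from that of Mrps12 and 205 from that of Mrpl32. The YY1 matches of Mrps11, Mrps12 and Mrpl32 thus lie downstream of the neighbour's start, on the neighbour's own strand. The NRF1 palindrome of Mrpl32 begins 87 bases before its start, and the ETS letters of Mrps27 begin 49 bases before its start on the other strand.

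Many of these genes also face a neighbour head to head. Of the 62 genes with a window, 21 (33.9%) had a protein-coding gene on the opposite strand whose start lay within 1000 bases, against 1483 of 17492 protein-coding genes (8.48%); this count was chosen after the data were seen. Mrps11 and Mrpl46 form such a pair with each other, their starts 42 bases apart, so that a small-subunit and a large-subunit gene share 1 start region. Mrps12 lies 147 bases from Sars2, the mitochondrial seryl-tRNA synthetase, Mrps27 lies 108 bases from Ptcd2, another pentatricopeptide repeat protein, and Mrpl32 lies 205 bases from the proteasome gene Psma2. Of the 21 partners, 9 were higher in Tg. The 2 partners with the smallest p were Cyb5rl beside Mrpl37, which differed by 0.43 ± 0.10 (SE), and Ska3 beside Mrpl57, which differed by -0.46 ± 0.16, with adjusted p of 0.33 and 0.43 in limma.

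**Figure D1:**
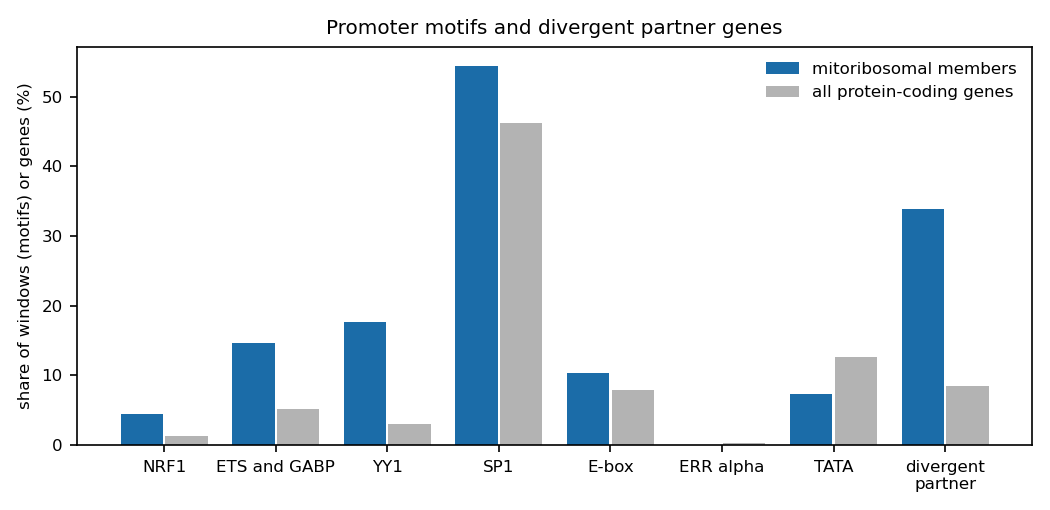
Share (%) of 68 member promoter windows (blue) and of 21263 protein-coding windows (grey) that hold each exact motif, and, at right, the share of 62 members and of 17492 protein-coding genes with a divergent partner within 1000 bases. The YY1 letters (17.6% against 3.05%) and divergent partners (33.9% against 8.48%) show the widest gaps in proportion, and TATA is the 1 frequent motif with a lower member share. Some genes, among them Mrpl32, Mrps11, Mrps12 and Mrps27, have both the YY1 letters and a divergent partner. The part of divergent partners in the YY1 share was not tested.

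The level of the 71 genes differed little between the genotypes. With limma and Benjamini-Hochberg adjustment over all 41345 rows, 0 of 71 members passed an adjusted p of 0.05, as did 0% of all rows, and the members' adjusted p were 0.35 or higher. At an unadjusted p under 0.05 there was 1 member, Mrpl54, while 10.3% of all rows and 9.82% of the 22180 named genes, each by its brightest row, reached that level. The mean was higher in Tg for 38 members (53.5%; 47.2% of all rows and 50% of the named genes) and lower for 33. The 3 Tg arrays lay all above or all below the 3 WT arrays for 12 members (16.9%), against 16.7% of all rows and 18.2% of the named genes, so that share is at the background. Those 12 were 8 with Tg higher and 4 with Tg lower. The split was 13 and 0 after each array was centred on its median, 11 and 2 after quantile normalization and 10 and 2 after cyclic loess. Under these settings, in that order, 17.3%, 16.7% and 16.8% of all rows were apart in either direction. Those shares were not split by direction, so the member splits have no all-row split beside them. Centring also made 52 members higher in Tg, as it moved the median of all rows from -0.01 to 0.05. With 3 arrays per genotype, the smallest 2-sided p of an exact permutation test is 0.1.

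The differences, Tg minus WT, had a median of 0.01 (-0.01 over all rows), quartiles of -0.07 and 0.09, and a range from -0.28 to 0.36. They were within 0.2 of 0 for 69 members and within 0.1 for 44. The median size of the difference was 0.08, against 0.14 over all rows and 0.12 over 1 row for each of the 22180 named genes. The median spread within a group was also smaller for the members, an SD of 0.11 against 0.18 over all rows. The 95% interval of the fit stayed inside a 1.5-fold change in either direction for 69 of 71 members (97.2%), against 61.2% of all rows and 71.4% of the named genes. The exceptions were Mrpl54 and Mrps14, and all 71 intervals stayed inside a 2-fold change. The arrays thus bounded most members closely. The members were also brighter, with a median level of 5.59, against 2.67 over all rows and 3.70 over the named genes. The part of level in these comparisons was not tested.

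**Figure D2:**
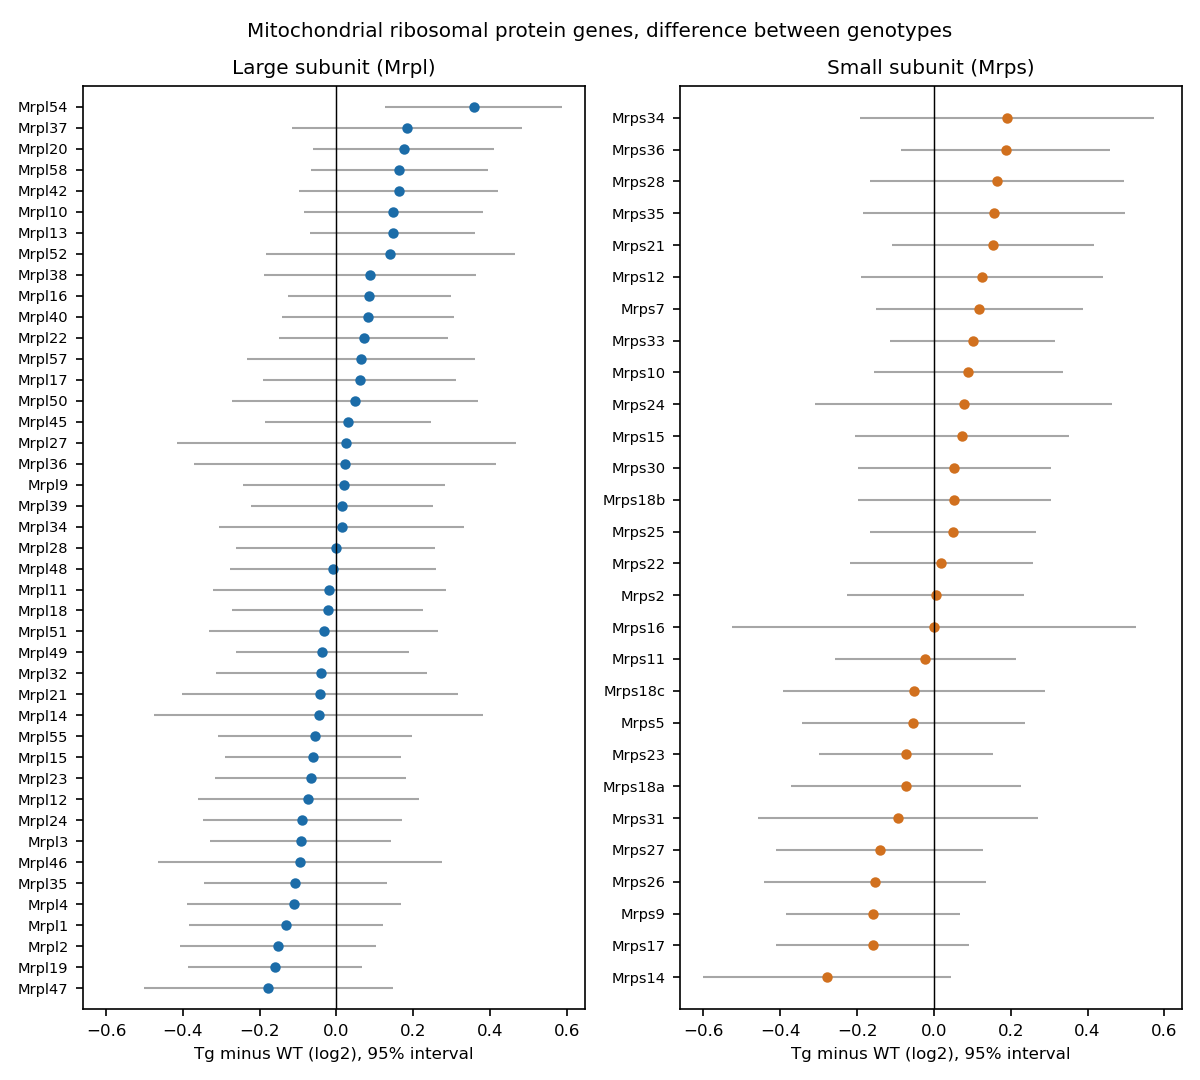
Tg minus WT (log2, horizontal axis) for each of 43 large-subunit (left) and 28 small-subunit (right) genes, ordered by the difference; dots are the fitted differences of 3 Tg and 3 WT arrays and grey lines their 95% intervals. Most dots lie within 0.2 of 0, and the interval of Mrpl54 (0.13 to 0.59) does not reach 0.

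Mrpl54 encodes mL54, a mitochondrion-specific protein of the large subunit. The 3 WT arrays, in order of number, read 6.59, 6.44 and 6.53, and the 3 Tg arrays 6.93, 6.88 and 6.82. All Tg arrays stood above all WT arrays, with a gap wider than the spread inside either group. The difference was 0.36 ± 0.10 (SE, n = 3 per group), or 1.28-fold, with an unadjusted p of 0.0084 and an adjusted p of 0.35 in limma. Under the alternatives tried the difference ran from 0.28 to 0.42, and the adjusted p from 0.23 to 0.92.

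The groups did not overlap, with Tg higher, for 7 further members (8 of 71 with Mrpl54; 7.36% of all rows and 8.85% of the named genes were so placed), all but 1 in the large subunit. Mrpl20, whose bacterial counterpart L20 is needed early in assembly of the large subunit, read 5.05, 5.05 and 4.91 in WT and 5.18, 5.25 and 5.11 in Tg. Mrpl58, also known as ICT1, is a peptidyl-tRNA hydrolase that rescues stalled mitoribosomes and is built into the large subunit. It read 6.62, 6.50 and 6.58 in WT and 6.73, 6.80 and 6.65 in Tg. For both, the lowest Tg array was less than 0.1 above the highest WT array. The differences were 0.17 ± 0.10 for Mrpl20 and 0.16 ± 0.10 for Mrpl58, with adjusted p of 0.58 and 0.60 in limma. Mrpl42, mitochondrion-specific, Mrpl10, the stalk base that holds the L12 copies which recruit translation factors, and Mrpl13, an RNA-binding core protein, differed by 0.16 ± 0.11, 0.15 ± 0.10 and 0.15 ± 0.09. Mrpl16, next to the tRNA sites, and Mrps33, mitochondrion-specific and the small-subunit gene of these 8, differed by 0.09 and 0.10, each about the size of its SE of 0.09.

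The groups did not overlap, with Tg lower, for 4 members (9.35% of all rows and 9.39% of the named genes were so placed), 3 of them in the small subunit. Mrps14, a protein of the small subunit's head, read 2.63, 2.59 and 2.58 in WT and 2.52, 2.08 and 2.37 in Tg. The WT arrays lay close together, and Tg 2, the array with the reproductive tract signal, was the lowest. The part of that signal in the Mrps14 value was not tested. The difference was -0.28 ± 0.13, with an adjusted p of 0.53 in limma, and without Tg 2 it was -0.16. Mrps14 was also 1 of 3 members, with Mrps36 and Mrpl27, whose level lay under the median of all rows, where differences are compressed. Mrps9, whose bacterial counterpart touches the tRNA from the small subunit's head, read 5.57, 5.70 and 5.72 in WT and 5.48, 5.49 and 5.55 in Tg. Mrpl19, a protein at the joint of the subunits, read 5.78, 5.71 and 5.83 in WT and 5.55, 5.66 and 5.64 in Tg. For each, the groups were parted by under 0.1. Mrps9, Mrpl19 and Mrps17 each differed by -0.16 (SE 0.09, 0.09 and 0.10), with adjusted p between 0.60 and 0.64 in limma. A second, dimmer row of Mrps17 differed by 0.62 ± 0.28, with all Tg arrays above all WT arrays.

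**Figure D3:**
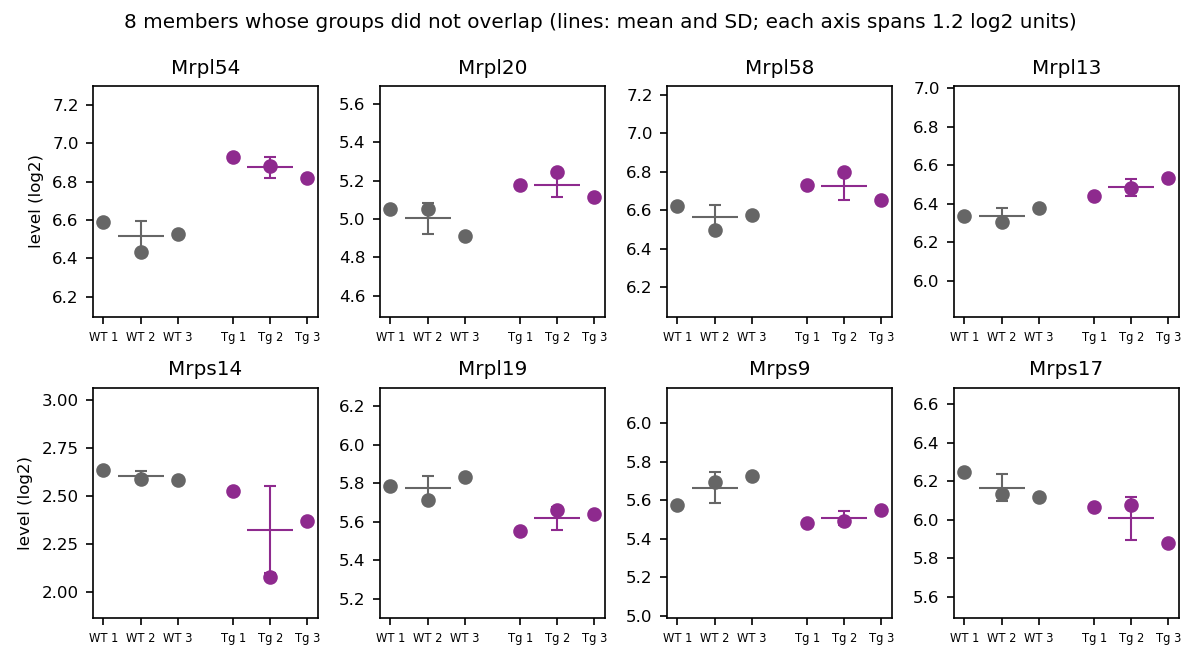
Level (log2, vertical axis) in each array for 4 members higher in Tg (top) and 4 lower in Tg (bottom), all with groups that did not overlap; grey is WT, purple is Tg, horizontal lines and bars are the mean and SD of 3 arrays, and each panel spans 1.2 log2 units. The gap is widest relative to the spread for Mrpl54, and the Tg 2 value of 2.08 sets Mrps14 apart. A second, dimmer row of Mrps17, not shown, had groups apart with Tg higher.

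Among other large-subunit genes, those around the exit tunnel and its membrane anchor, through which new chains reach the inner membrane, were mixed. Of Mrpl22, Mrpl23, Mrpl24, Mrpl45 and Mrpl47, 2 were higher and 3 lower in Tg, with a median of -0.07. Mrpl47, the counterpart of bacterial L29, read 4.78, 4.83 and 5.01 in WT and 4.47, 4.80 and 4.82 in Tg, and Tg 1 set most of its difference of -0.18 ± 0.13. Mrpl24 differed by -0.09 ± 0.11. In the stalk, where Mrpl10 stood higher in Tg, Mrpl11 and Mrpl12 differed by -0.02 ± 0.13 and -0.07 ± 0.12. Mrpl12 is also known to bind the mitochondrial RNA polymerase. Both groupings were made after the values were seen.

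Near the peptidyl transferase centre, where amino acids are joined, Mrpl2 differed by -0.15 ± 0.11 and Mrpl27 by 0.03 ± 0.18. Mrpl37 and Mrpl52, both mitochondrion-specific, differed by 0.18 ± 0.12 and 0.14 ± 0.13. Mrpl52 read 7.86 in Tg 1 and between 7.38 and 7.57 in the other 5 arrays, and without Tg 1 its difference was 0.022. Tg 1 also had the highest white adipocyte marker mean, and the part of that in the Mrpl52 value was not tested. Mrpl14, an interface protein to which assembly factors dock, read 3.99, 3.38 and 3.76 in WT and 3.75, 3.75 and 3.48 in Tg. Its widest gap lay between WT 1 and WT 2, inside 1 group, and its difference was -0.05 ± 0.18, which turned positive under all 3 renormalizations.

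In the small subunit, Mrps12 differed by 0.13 ± 0.13, and by 0.039 without WT 1. Mrps34, which is needed to keep the small ribosomal RNA stable, read 5.05, 4.87 and 4.99 in WT and 5.44, 4.87 and 5.17 in Tg. Tg 1 was highest and Tg 2 level with WT 2, so the groups overlapped and the difference was 0.19 ± 0.16, and 0.051 without Tg 1. Mrps26 and Mrps27, both mitochondrion-specific, differed by -0.15 ± 0.12 and -0.14 ± 0.11. Mrps15, which binds the small ribosomal RNA, differed by 0.07 ± 0.12. Mrps16, a protein whose loss causes a human mitochondrial disease, read 4.68, 4.55 and 5.25 in WT and 5.06, 4.84 and 4.58 in Tg. It had the widest range of all members, 0.71, with its highest and its lowest array both in WT, and a difference of 0.00 ± 0.22.

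Some symbols do not match the place of the protein. Mrps30 and Mrps18a encode proteins that sit in the large subunit of the mammalian mitoribosome (mL65 and mL66), and differed by 0.05 ± 0.11 and -0.07 ± 0.12. The paralogs Mrps18b and Mrps18c, which belong to the small subunit, differed by 0.05 ± 0.10 and -0.05 ± 0.14, the latter positive after centring or quantile normalization. Mrps36 is now known as a part of the 2-oxoglutarate dehydrogenase complex of the citrate cycle and not of the ribosome. It read between 2.35 and 2.56 in WT and between 2.53 and 2.76 in Tg, with Tg 2 under WT 1, and its difference was 0.19 ± 0.11.

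The rule took the brightest row of each gene, and 9 members had more than 1 row. For 4 of them the rows differed in sign. The second row of Mrps17 read 3.46, 2.75 and 3.33 in WT and 3.56, 4.34 and 3.51 in Tg, a difference of 0.62 ± 0.28 (adjusted p of 0.52 in limma) where the first row had -0.16. The highest array of that second row was Tg 2. The second row of Mrps5, a protein at the message's entry, differed by 0.40 ± 0.17 where the first had -0.05 ± 0.12, which turned positive after centring. For Mrpl12 and Mrps18c the second rows differed by 0.12 ± 0.17 and 0.13 ± 0.16.

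The large and the small subunit were compared next, since the ribosome needs both in equal number. Of 43 large-subunit genes, 21 were higher and 22 lower in Tg, and the groups were apart for 7 with Tg higher and 1 with Tg lower. Of 28 small-subunit genes, 17 were higher and 11 lower, and the groups were apart for 1 with Tg higher and 3 with Tg lower. In either direction that is 18.6% of the large and 14.3% of the small subunit, near the 16.7% of all rows and 18.2% of named genes. The median difference was -0.00 for the large subunit, with a range from -0.18 to 0.36, and 0.03 for the small subunit, with a range from -0.28 to 0.19. The large-subunit mean minus the small-subunit mean was 0.03, 0.00 and -0.02 across the WT arrays and 0.02, -0.03 and 0.00 across the Tg arrays. These values overlapped between the genotypes. The medians were -0.04 apart, while the mean difference was 0.01 for each subunit. With proteins placed by structure (45 large, 25 small), the medians were -0.00 and 0.02.

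By array rather than by genotype, the members averaged 0.01, -0.04 and 0.01 in WT and 0.05, -0.03 and -0.01 in Tg, relative to each gene's mean. Tg 1 was the highest array for 20 members (28.2%; 18.5% of all rows), 15 of them in the large subunit. WT 2 was the lowest array for 20 members and Tg 2 for 16, where 15.8% and 20.1% of all rows were lowest. The spread among arrays of 1 genotype, an SD of 0.03, was thus wider than the distance between the genotype means. The white adipocyte and macrophage marker means given above parted the genotypes on these arrays, whereas the means of the ribosomal protein genes overlapped.

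**Figure D4:**
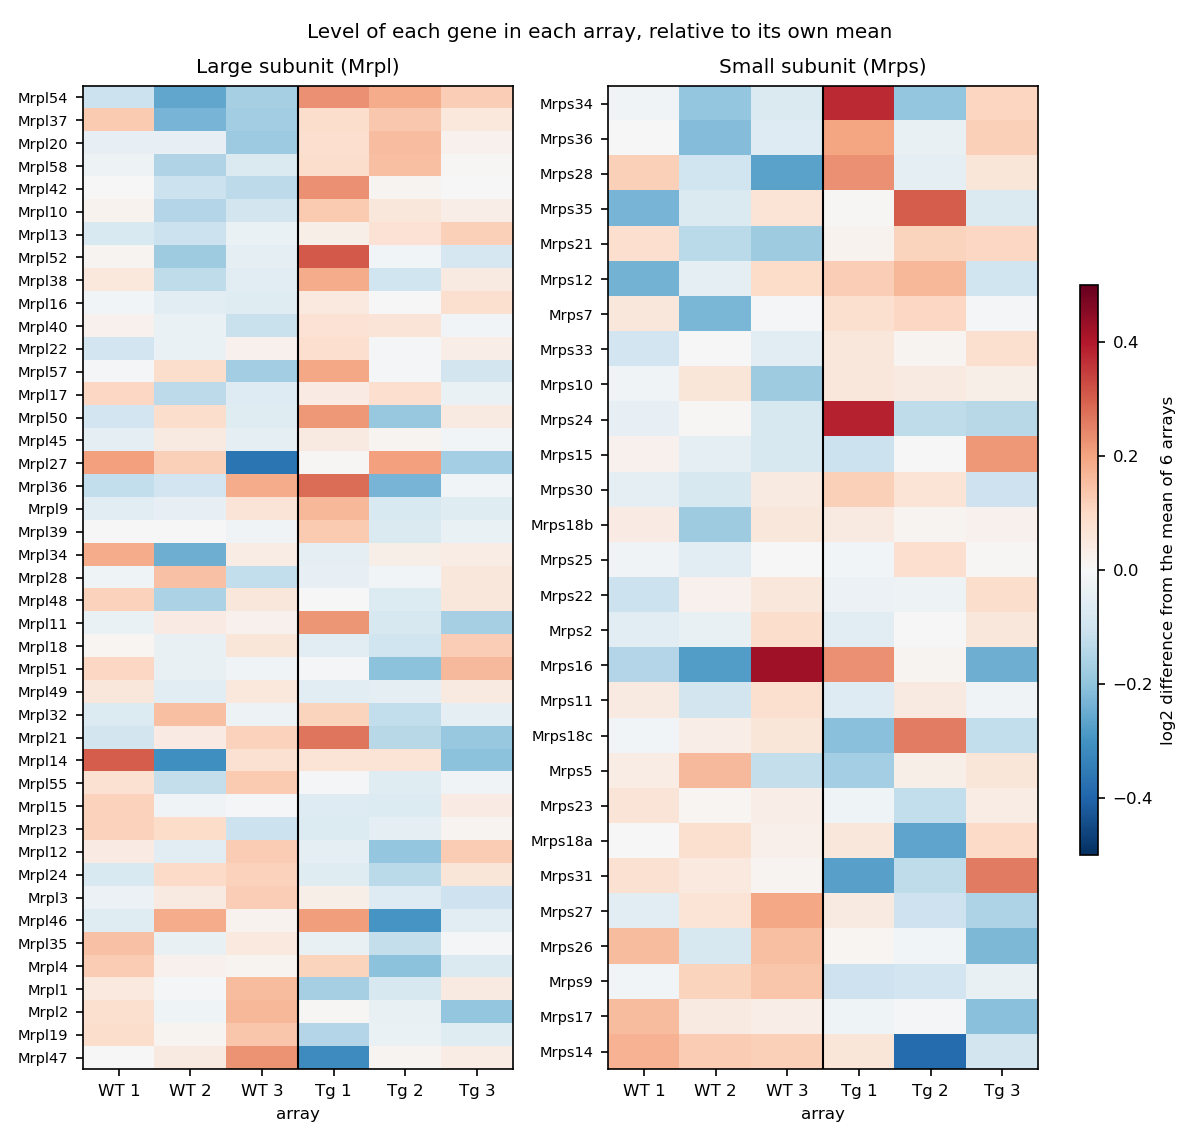
Level of each member in each array (columns), as the log2 difference from the gene's own mean over 6 arrays (colour, red higher and blue lower), for 43 large-subunit (left) and 28 small-subunit (right) genes ordered by Tg minus WT. Red cells in Tg 1 (highest array for 20 members) and single strong cells such as WT 3 for Mrps16 (5.25) stand out more than any block that follows the genotype.

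Members were also divided by the protein's name in the ribosome, which marks it as bacterial-type or mitochondrion-specific. This is not strictly descent. By name Mrps18a and Mrps18b counted as mitochondrion-specific, and their paralog Mrps18c as bacterial-type. Of 43 bacterial-type members, 19 were higher and 24 lower in Tg, with a median of -0.02. Of 27 mitochondrion-specific members, 18 were higher and 9 lower, with a median of 0.05. In the large subunit by structure the medians were -0.04 (28 genes, 10 higher) and 0.05 (17 genes, 12 higher), and in the small subunit 0.00 (15 genes) and 0.03 (10 genes). The mean of the mitochondrion-specific minus that of the bacterial-type members was -0.03, -0.02 and -0.04 across the WT arrays and 0.06, -0.01 and 0.04 across the Tg arrays, and the genotypes did not overlap. In the large subunit it was -0.03, -0.03 and -0.08 in WT and 0.10, 0.00 and 0.03 in Tg. In the small subunit it was -0.03, -0.01 and 0.04 in WT and -0.01, -0.02 and 0.04 in Tg, which overlapped. Without Mrpl54 the Tg 2 value over both subunits was -0.014, against -0.017 in WT 2, the highest WT array, so the groups then barely parted. This contrast was chosen after the values were seen, it was given no test, and each value is far smaller than a 1.5-fold change. The gap between the medians, 0.072, was 0.038 with quantile normalization and 0.037 with the mean of each gene's rows.

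A further division was by the promoter letters. The 12 genes with the YY1 letters had a median difference of -0.00, with 6 higher in Tg, and the 50 without had 0.00. The 10 with the ETS letters had a median of -0.03, with 3 higher, and the 52 without had 0.01. The 3 with the NRF1 palindrome differed by -0.04 ± 0.11 (Mrpl32), 0.02 ± 0.11 (Mrpl9) and 0.01 ± 0.10 (Mrpl39). The genes of the matching factors read alike in both genotypes, with differences of -0.08 ± 0.11 for Nrf1, -0.07 ± 0.10 for Gabpa and 0.06 ± 0.11 for Yy1.

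Other parts of the mitochondrial translation apparatus were taken as whole lists, and 0 genes passed the threshold in each. Of 3 measured mitoribosomal proteins with other names, Ptcd3, Dap3 and Gadd45gip1 differed by 0.16 ± 0.11, -0.06 ± 0.10 and 0.01 ± 0.10. Of 22 factors that assemble the mitoribosome or modify its RNA, 11 were higher and 11 lower in Tg, with a median of -0.00. The GTPase Mtg1, which acts late in large-subunit assembly, differed by 0.31 ± 0.16, and Mterf4, which brings an RNA methyltransferase to the large subunit, by -0.19 ± 0.11. Of 16 mitochondrial aminoacyl-tRNA synthetases, which charge tRNAs, 7 were higher and 9 lower, with a median of -0.02. The smallest p there belonged to the isoleucyl enzyme Iars2 (0.21 ± 0.09) and the alanyl enzyme Aars2 (-0.17 ± 0.10). Of 18 genes for mitochondrial DNA expression and biogenesis, 8 were higher and 10 lower, with a median of -0.03. Polg2, the accessory subunit of the mitochondrial DNA polymerase, differed by -0.23 ± 0.10, and Esrra, an orphan nuclear receptor that induces mitochondrial genes, by 0.29 ± 0.14. Messages encoded by mitochondrial DNA were not analysed here.

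Mitochondrial translation factors start, extend and end the chains on the mitoribosome. The list taken also held genes with other roles, among them Lrpprc, Oxa1l and Letm1. Of 16 genes measured on the whole list, 4 were higher and 12 lower in Tg, with a median of -0.09. At an unadjusted p under 0.05 there were 2 of 16, both lower, where 10.3% of all rows and 9.82% of the named genes reached that level. The groups were apart for 2 with Tg higher and 2 with Tg lower (25% in either direction, against 16.7% of all rows and 18.2% of the named genes). The former were Mrrf, the ribosome recycling factor (0.22 ± 0.11), and Letm1, an inner-membrane protein (0.11 ± 0.10), both named after their values were seen. Guf1, an elongation factor that can move the ribosome backwards, read 6.21, 6.53 and 6.31 in WT and 6.01, 5.98 and 6.10 in Tg. All Tg arrays were below all WT arrays, and the difference was -0.32 ± 0.12, with an adjusted p of 0.45 in limma. Mtrf1l, the release factor that ends translation, read 6.11, 6.11 and 5.96 in WT and 5.74, 5.70 and 5.94 in Tg. The groups were parted by less than 0.1, and the difference was -0.27 ± 0.11, with an adjusted p of 0.48 in limma. The difference between this list and the ribosomal proteins was not tested.

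The mitoribosome's product partners and its cytosolic counterpart were set beside it. Complex I assembles from nuclear-encoded subunits and subunits that the mitoribosome makes. Of 34 genes with Nduf symbols of that complex, 28 (82.4%) were higher and 6 lower in Tg, while 47.2% of all rows were higher. Their median was 0.10, against 0.01 for the 71 members. The groups were apart for 5 of the 34 (14.7%, against 16.7% of all rows and 18.2% of named genes), all with Tg higher. At an unadjusted p under 0.05 in limma there were 2 of 34, while 10.3% of all rows reached that level. Without Ndufa4, now placed in complex IV, and its paralog Ndufa4l2, 26 of 32 were higher, with the same rounded median of 0.10. Their array means were 0.02, -0.10 and -0.05 in WT and 0.15, -0.00 and -0.01 in Tg, so WT 1 lay above 2 Tg arrays, and Tg 1 was highest as it was for the members. By smallest p, Ndufb9 differed by 0.34 ± 0.12 and Ndufa5 by -0.32 ± 0.13, with adjusted p of 0.43 and 0.47 in limma. Of 69 genes with symbols of cytosolic ribosomal proteins, 33 were higher and 36 lower, with a median of -0.01 and the groups apart for 8 (11.6%, against 16.7% of all rows and 18.2% of named genes). That list was taken by symbol, and without Rps19bp1 and Rps23rg1, which encode no ribosomal protein, 32 were higher and 35 lower. Rpl34 differed by -0.39 ± 0.11 and Rpl32l, a dim row, by 0.46 ± 0.18, the 2 with the smallest p, and the former had an adjusted p of 0.36 in limma. In counts and median the mitochondrial and cytosolic ribosomal proteins lay near each other, and neither the distance to complex I nor that to the cytosolic set was tested.

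**Figure D5:**
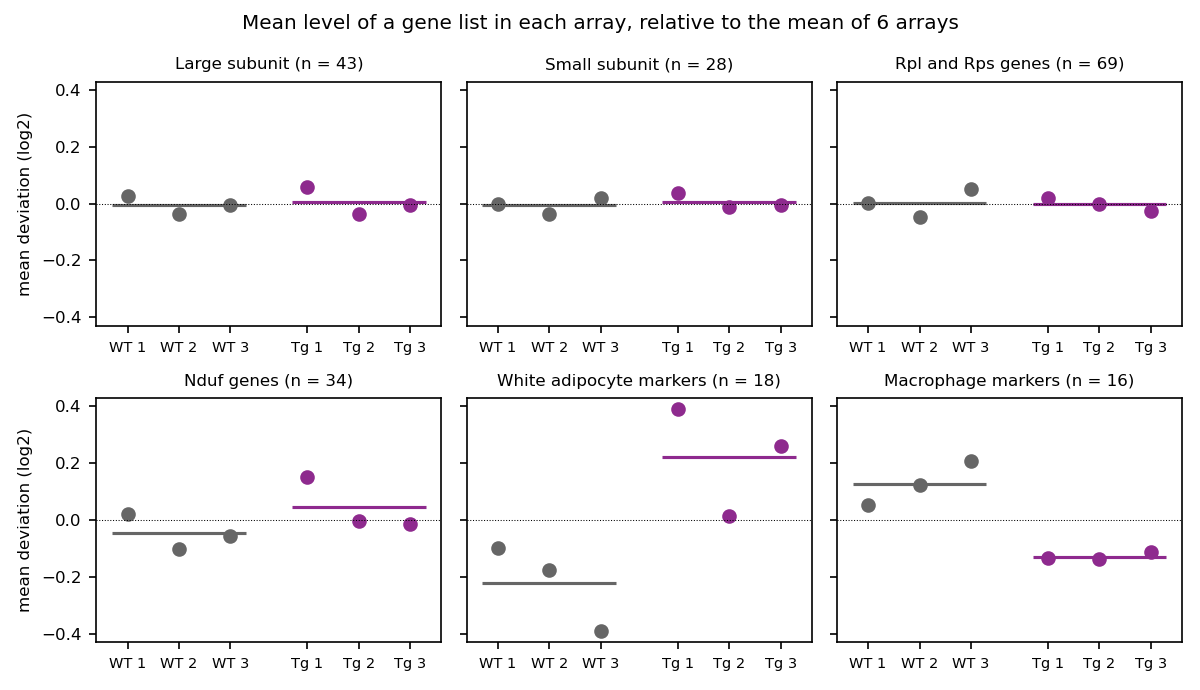
Mean of each gene list in each array (dots; log2, relative to each gene's mean over 6 arrays), with grey for WT, purple for Tg and lines at the group means; n is the number of genes. The large and small subunit and the Rpl and Rps genes of the cytosolic ribosome stay within 0.06 of 0 in every array and overlap between genotypes, whereas the adipocyte markers (-0.39 to 0.39) and macrophage markers (-0.14 to 0.21) part them.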

How the data were processed

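RNA of 3 WT and 3 Tg eWAT samples was hybridised to Affymetrix arrays after biotin labelling, per the labels' protocols. The authors deposited log2 values, 1 per row and array. RMA and limma were named per the submitters' processing notes, with no version, filter or build given in the sources used here. RMA normalizes between arrays and compresses differences between low values. Depth does not apply to arrays, and 3 arrays per group limit the precision. Of 41345 rows, 23521 named 1 gene.

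Tg was compared with WT in limma 3.58.1 (R 4.3.3; lmFit and eBayes, 2-sided, no filter, no covariate), with Benjamini-Hochberg adjustment over all rows and a threshold of 0.05. The procedure was tested on simulated data, in which the changes were larger than any member's difference. That test does not cover differences of the members' size. The members and lists were chosen with earlier results of these data known. Named members were the 8 with the smallest p in each direction, the 4 highest, the 4 lowest and the 4 most variable in level, Mrpl12, Mrpl58, Mrps12, Mrps18a, Mrps30 and Mrps36, and those whose rows differ in sign. From each related list the 2 with the smallest p were named. Other genes and members were named after their values were seen. Motifs were matched exactly in RefSeq promoter windows (GRCm38.p6). The 16 alternatives used other normalizations, filters, variance models, gene summaries, array weights, a replicate block, fewer arrays and subunits placed by structure.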

Additional observations from a re-analysis of the deposited data

How the results depend on the processing

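No member passed the threshold under any of the alternatives tried, and 36 to 52 members were higher in Tg (38 as reported). Centring each array on its median moved the median of all rows from -0.01 to 0.05 and the median over the members to 0.079 (0.063 in the large and 0.10 in the small subunit), and put 13 members apart with Tg higher and 0 with Tg lower. Quantile normalization gave 0.062 (0.044 and 0.069), and 11 and 2 members. Cyclic loess gave 0.067 for the small subunit, and 10 and 2 members. Under centring, quantile normalization and cyclic loess, 17.3%, 16.7% and 16.8% of all rows were apart in either direction, and these shares were not split by direction. With the mean of a gene's rows the small subunit stood at 0.063. The mitochondrion-specific minus bacterial-type contrast (0.072) was 0.038 with quantile normalization and 0.037 with the mean of rows. Leaving out 1 array at a time put the large minus small subunit contrast between -0.073 (without Tg 1) and 0.0087 (without Tg 3), and the count of members with groups apart between 15 and 23, where 25.3% to 31.2% of all rows were apart. That count was 23 without Tg 1 or without WT 2, 22 without WT 1 and 21 without Tg 3. With WT 1, Tg 1 and Tg 3 alone, where the lone WT array is assumed to vary like Tg, that contrast was 0.0062 and 46 members were apart (67.7% of all rows).

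Of 29 named members, 18 kept their sign under every setting. The sign turned for Mrpl12 (0.022 with the mean of rows), Mrpl14 (0.0019 with loess, 0.019 centred, 0.042 quantile), Mrpl27 (-0.023 with array weights), Mrps17 (0.23 with the mean of rows), Mrps18c (0.013 centred, 0.040 with the mean of rows, 0.035 quantile) and Mrps5 (0.011 centred, 0.17 with the mean of rows). With the 3 arrays alone it turned for Mrpl24 (0.078), Mrpl27 (-0.29), Mrpl37 (-0.063) and Mrps18a (0.073). Leaving out 1 array gave ranges of -0.16 to 0.0044 for Mrpl12, -0.21 to 0.092 for Mrpl14, -0.15 to 0.14 for Mrpl27, -0.018 to 0.14 for Mrps15, -0.14 to 0.21 for Mrps16, -0.14 to 0.040 for Mrps18a, -0.19 to 0.040 for Mrps18c and -0.13 to 0.017 for Mrps5. For 13 named members leaving out 1 array kept the sign but moved the value by over 1.5 times: Mrpl2, Mrpl24, Mrpl37, Mrpl42, Mrpl47, Mrpl52 (0.022 to 0.22), Mrps12 (0.039 to 0.21), Mrps14, Mrps17, Mrps26, Mrps27, Mrps30 (0.0077 to 0.12) and Mrps34 (0.051 to 0.33). Causes were not tested beyond the arrays and rows each alternative leaves out or averages. The filter on dim rows left 68 members, without Mrps14, Mrps36 and Mrpl27.

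The replicate numbers share no stated litter or batch, and same-numbered arrays did not deviate together (r of -0.04, 0.01 and -0.04). With the replicate block 0 members passed, 4034 rows had an unadjusted p under 0.05 against 4263, and Mrpl54 had an adjusted p of 0.46 in limma.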
